A study of Homo sapiens with 12 samples.

Results

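The mRNAs of 8 endoplasmic reticulum (ER) chaperones and folding enzymes were followed from the 80S ribosome fraction into immunoprecipitates of tagged RPL12. The 8 genes were taken by Ensembl identifier: HSPA5 (ENSG00000044574.7), HSP90B1 (ENSG00000166598.8), CALR (ENSG00000179218.9), CANX (ENSG00000127022.10), P4HB (ENSG00000185624.10), PDIA3 (ENSG00000167004.8), PDIA4 (ENSG00000155660.6) and PDIA6 (ENSG00000143870.8). All 8 were found among the 57820 gene identifiers counted in each library, and all 8 passed the filter on low counts. The choice rested on the proteins' shared place of work, but it was made with earlier results of these data known.

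RPL12 (uL11) sits in the stalk base of the large ribosomal subunit, and by its title the study asks how phosphorylation of RPL12 bears on translation in mitosis. The cells were lines made from HEK293 Flp-In T-Rex cells, an established human embryonic kidney line. The lines stably overexpressed RPL12 with a FLAG/HA tag, in its wild-type form (WT) or as S38A, in which serine 38 is replaced by alanine and cannot be phosphorylated, or as S38D, in which it is replaced by aspartate to mimic phosphorylation. All 3 lines carried the tag and were grown in the same medium, and the 2 libraries of a group were numbered fractions of the same line. For each fraction, RNA from the pooled 80S peak of a sucrose gradient (input) was sequenced beside RNA recovered from the rest of it with anti-FLAG antibody (IP). The 12 libraries thus formed 6 groups of 2: input and IP of WT, S38A and S38D. Every 80S pool received cycloheximide, which halts elongating ribosomes. Lines were expanded from monoclonal hygromycin-resistant colonies, so RPL12 form and line coincide. An IP from untagged cells was not among the libraries, so RNA bound to the beads by other means cannot be told apart from RNA recovered through RPL12. Whether replicates were separate cultures is not said in the labels, and a p-value here speaks only of the spread between these libraries, which could be technical.

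Proteins that enter the ER carry an N-terminal signal peptide, and the ribosome making them is brought to the translocon in the ER membrane. Inside, HSPA5 (BiP), a member of the HSP70 family, binds unfolded chains, and HSP90B1 (GRP94) is the HSP90 of the ER. CALR (calreticulin) and CANX (calnexin) are lectins that hold glycoproteins while they fold, CALR in the lumen and CANX anchored in the membrane. P4HB, PDIA3, PDIA4 and PDIA6 are protein disulfide isomerases, which make and rearrange disulfide bonds. PDIA3 works with the lectins, and P4HB is also the beta subunit of prolyl 4-hydroxylase. When unfolded protein builds up, the unfolded protein response raises transcription of many of these genes, partly through the ER stress response element (ERSE).

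The ERSE is shown here because it is what the promoters of most of these genes share. RefSeq promoter windows (GRCh38.p14, 250 bases before to 50 after a start) were matched by symbol for 7 of the 8 genes. The windows were searched on both strands for the ERSE, taken as CCAAT and CCACG with any 9 bases between them, and for the related ERSE-II, taken as ATTGG and CCACG with any 1 base between them. The ERSE was present in windows of 5 of the 7 genes and in 25 of the 27305 genes with a window (0.0916%). Over windows rather than genes it was in 27 of 35116 (0.0769%). The ERSE-II was in 0 windows of the 7 genes and in 19 of all windows (0.0541%). The sites are printed with 15 bases on each side in the sense of the gene, with the match in capitals. CALR and the second site of HSP90B1 match on the opposite strand. The positions of the printed stretches are chr9:125241376-125241424 for HSPA5 (minus strand), chr12:103930201-103930249 and chr12:103930306-103930354 for HSP90B1 (plus), chr19:12938369-12938417 for CALR (plus), chr5:179698763-179698811 for CANX (plus) and chr2:10812838-10812886 for PDIA6 (minus). The reads were counted on another build, hg19.
HSPA5: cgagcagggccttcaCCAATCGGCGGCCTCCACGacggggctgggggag
HSP90B1, first: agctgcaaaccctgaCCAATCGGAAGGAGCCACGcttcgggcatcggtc
HSP90B1, second: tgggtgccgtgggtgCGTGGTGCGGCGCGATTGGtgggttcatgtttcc
CALR: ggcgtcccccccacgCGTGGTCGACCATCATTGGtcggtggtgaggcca
CANX: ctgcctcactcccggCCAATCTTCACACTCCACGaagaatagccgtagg
PDIA6: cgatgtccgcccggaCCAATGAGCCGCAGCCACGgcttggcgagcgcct

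Input libraries held 7434431 to 8723130 gene counts and IP libraries 3186164 to 7430881. The 8 genes together took 11265 to 12464 counts in an input and 9017 to 13675 in an IP library. The lowest count of any of the 8 genes in any library was 223, for PDIA3 in the first WT IP, so counting error was small beside the spread between libraries. Levels are given as CPM, counts brought to a common library total, with TMM scaling, which sets the bulk of genes equal between libraries. No transcript lengths were used, so CPM is compared within a gene and not between genes. A fall in the number of cells holding an mRNA and a fall in its amount per cell cannot be told apart in bulk RNA. Markers of the HEK293 line were not analysed here, because the reference table paired symbols with 0 of the files' identifiers.

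All 8 mRNAs stood higher in IP than in the input of the same fraction in 6 of 6 fractions, which held for 20.3% of the 16920 genes tested. With total counts CANX and PDIA6 stood higher in 5 of 6. Averaged over the 3 lines, 7 of the 8 rose in IP (edgeR quasi-likelihood test, Benjamini-Hochberg adjusted p under 0.05), against 15.9% of all genes called higher. The rise was largest for HSP90B1, at 2.56-fold, followed by HSPA5 at 2.18-fold and CALR at 2.14-fold. PDIA6 gave 1.19-fold and did not pass. The median log2 change of the 8 was 0.69, against -0.04 over all genes. All but PDIA3 (7 of the 8) belong to the highest quartile of abundance, 4230 genes with a median of 0.17, of which 37.3% were called higher. With total counts in place of TMM the median of all genes moved to -0.25 and that of the 8 to 0.47. Of the 8, 6 then rose, where 38.7% of all genes were called in either direction.

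**Figure D1:**
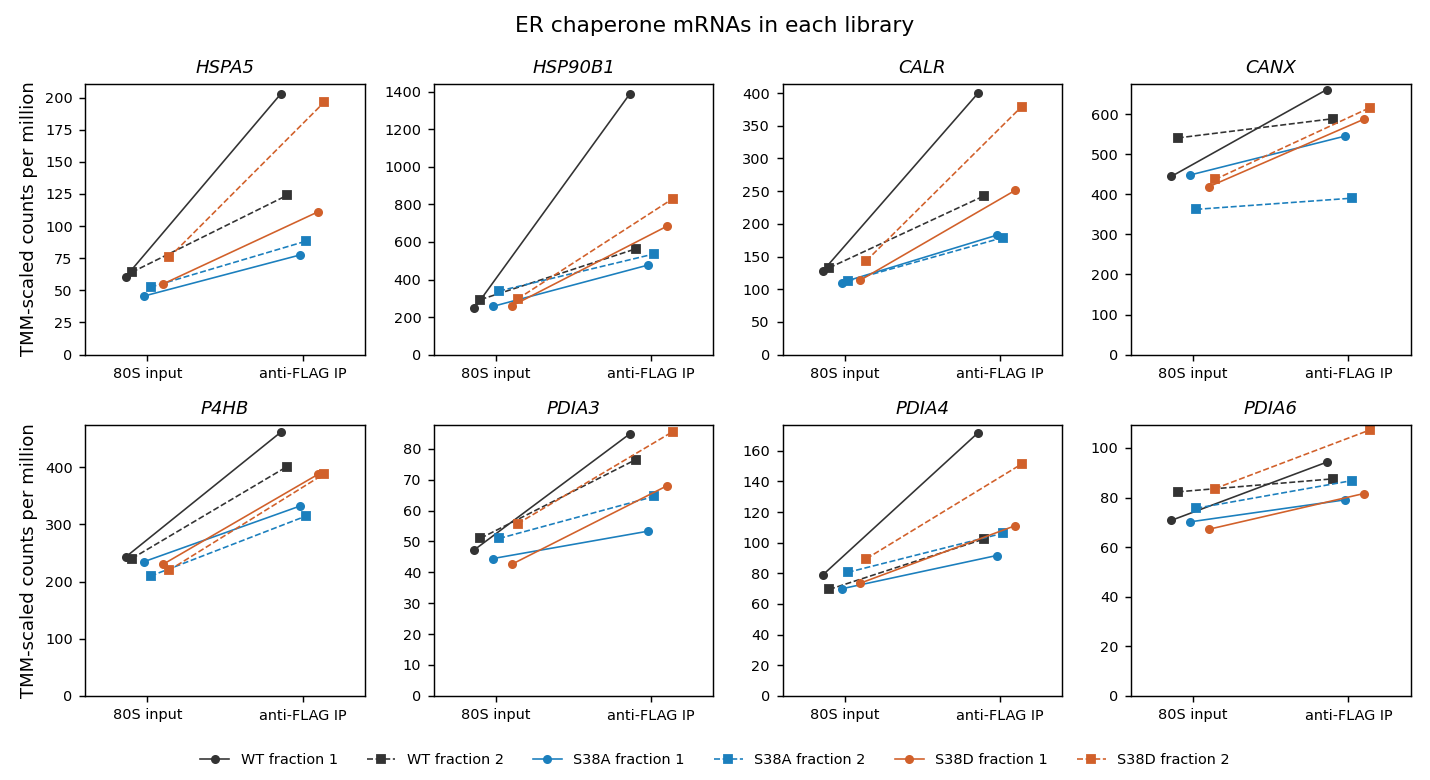
TMM-scaled CPM (vertical axes, starting at 0) of each ER chaperone mRNA in the 80S input and the anti-FLAG IP, with a line joining the 2 libraries of a fraction and colour giving the RPL12 form. Every line runs upward, and the first WT fraction (black, solid) ends highest for HSP90B1, at 1387 in IP.

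HSPA5, the HSP70 chaperone of the ER lumen, stood in input at 60.5 and 64.1 CPM in WT, 45.6 and 52.5 in S38A and, in S38D, 54.9 and 75.6. In IP it stood at 203 and 124 CPM in WT, 77.4 and 88.2 in S38A and, in S38D, 111 and 197. All 6 IP libraries lay above all 6 inputs, but narrowly so, since the lower S38A IP and the higher S38D input almost met. The log2 change over the 3 lines was 1.12 (SE 0.16, edgeR adjusted p = 0.00042), and 98.7% of genes had a change no larger.

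HSP90B1, the HSP90 of the ER, stood in input at 246 and 293 CPM in WT, 257 and 339 in S38A and, in S38D, 259 and 297. In IP it reached 1387 and 563 CPM in WT, 477 and 537 in S38A and, in S38D, 683 and 831. IP and input did not overlap. The first WT IP library stood far above the other 5, while the inputs lay close together. The log2 change was 1.36 (SE 0.19, edgeR adjusted p = 0.00036), at percentile 99.4 of all genes, and it was 1.08 without the first WT IP library.

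CALR, the lumenal lectin, moved much as HSPA5 did. Its input levels were 128 and 133 CPM in WT, 110.1 and 112 in S38A and, in S38D, 114 and 143. Its IP levels were 399.8 and 243 CPM in WT, 183 and 179 in S38A and, in S38D, 251 and 379. Again no IP library fell to the level of an input. The log2 change was 1.10 (SE 0.14, edgeR adjusted p = 0.00025), at percentile 98.5.

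CANX, the membrane-bound lectin, changed less than its lumenal relative. It stood in input at 445 and 541 CPM in WT, 448 and 363 in S38A and, in S38D, 419 and 437. In IP it stood at 661 and 589 CPM in WT, 545 and 390.3 in S38A and, in S38D, 587 and 617. The second S38A IP library lay below 5 of the 6 inputs, so the groups overlapped. The log2 change was 0.35 (SE 0.11, edgeR adjusted p = 0.034), at percentile 80.6. This call was lost with total counts (log2 0.13, edgeR adjusted p = 0.32) and when any of 8 of the 12 libraries was left out, holding without the second WT input, the first S38A input, the second WT IP or the second S38A IP.

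P4HB, the classic disulfide isomerase, showed a smaller but tighter rise. Its input levels were 243 and 240.5 CPM in WT, 235 and 209.7 in S38A and, in S38D, 230.2 and 220.03. Its IP levels were 462 and 402 CPM in WT, 332 and 315 in S38A and, in S38D, 388 and 389. The IP and input libraries did not overlap. The log2 change was 0.72 (SE 0.09, edgeR adjusted p = 0.00021), the lowest p among the 8 genes.

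The other isomerases changed by less than P4HB. PDIA4 ran from 69.5 to 89.5 CPM in input (median 76.3, n = 6) and from 91.6 to 172 in IP (median 109), without overlap. Its log2 change was 0.65 (SE 0.13, edgeR adjusted p = 0.0031). PDIA3, the partner of the lectins, ran from 42.6 to 55.8 CPM in input (median 49.1) and from 53.3 to 85.6 in IP (median 72.2). The first S38A IP library lay inside the range of the inputs, and the log2 change was 0.55 (SE 0.11, edgeR adjusted p = 0.0023). PDIA6 ran from 67.2 to 83.6 CPM in input (median 73.3) and from 79.1 to 107.3 in IP (median 87.2), and its groups overlapped. Its log2 change of 0.25 (SE 0.10) did not pass (edgeR adjusted p = 0.077). With the fraction as a block it passed (0.25, edgeR adjusted p = 0.012), where 46.5% of all genes were called in either direction, and with total counts it was 0.04. Pseudogenes named for HSPA5, HSP90B1 and PDIA3 are listed in the reference table, and the sources used here do not give how reads shared with such copies were counted.

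In all, 5 of the 8 genes (HSPA5, HSP90B1, CALR, P4HB and PDIA4) had every IP library above every input, against 6.15% of all genes. With total counts this held for 3 of them, HSP90B1, CALR and P4HB, and the share of all genes was not taken under that scaling. The genes with an ERSE in their window were HSP90B1, HSPA5, CALR, CANX and PDIA6, with log2 changes of 1.36, 1.12, 1.10, 0.35 and 0.25. P4HB and PDIA4, whose windows held none, stood at 0.72 and 0.65. PDIA3 had no window to search. A relation between the ERSE and IP over input was not tested.

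**Figure D2:**
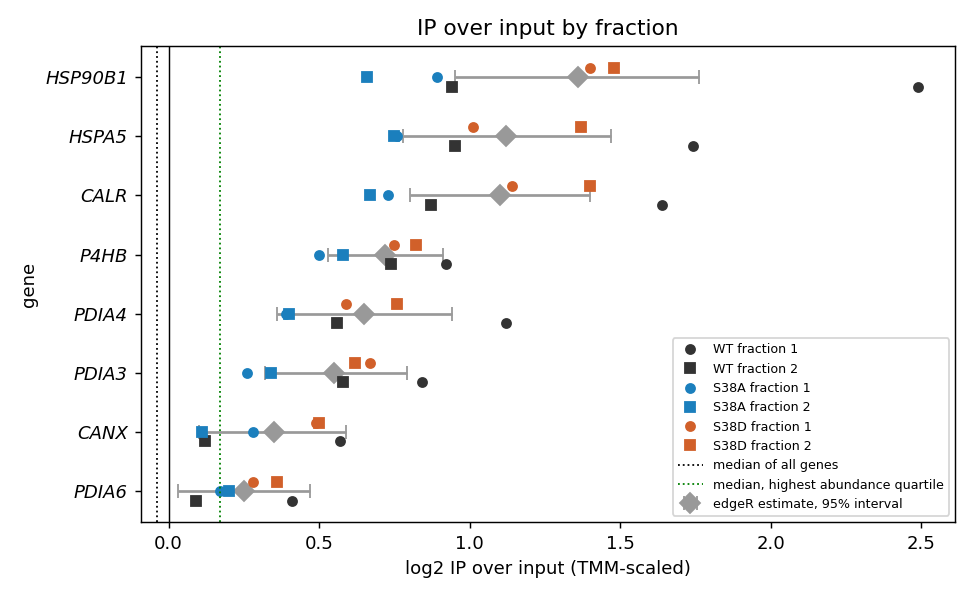
Log2 IP over input (horizontal axis) of each gene in each of 6 fractions (coloured points), with the edgeR estimate over the 3 lines and its 95% interval (grey). The 8 genes run from PDIA6 at 0.25 to HSP90B1 at 1.36, and all points lie to the right of 0, with dotted lines at the medians of all genes (-0.04) and of the highest abundance quartile (0.17).

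The make-up of the chaperone mRNAs also differed between IP and input, and shares of their summed counts do not depend on how libraries are scaled. HSP90B1 held 21.1% ± 2.7 (SD, n = 6) of the counts of the 8 genes in input and 30.4% ± 5.2 in IP, and the IP share exceeded the input share in 6 of 6 fractions. The shares of HSPA5 and CALR were higher in IP in 6 of 6 as well, from 4.39% ± 0.60 to 5.46% ± 1.0 for HSPA5 and from 9.21% ± 0.61 to 11.2% ± 1.4 for CALR. CANX went the other way, with 33.0% ± 3.0 in input and 24.3% ± 3.8 in IP. Its share was lower in IP in 6 of 6 fractions. PDIA6 held 5.33% to 5.96% in the inputs and 2.72% to 4.91% in the IP libraries, without overlap. PDIA4 was also lower in 6 of 6 fractions, PDIA3 in 5 and P4HB in 4. These shares follow from the changes above and are given with no test of their own.

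**Figure D3:**
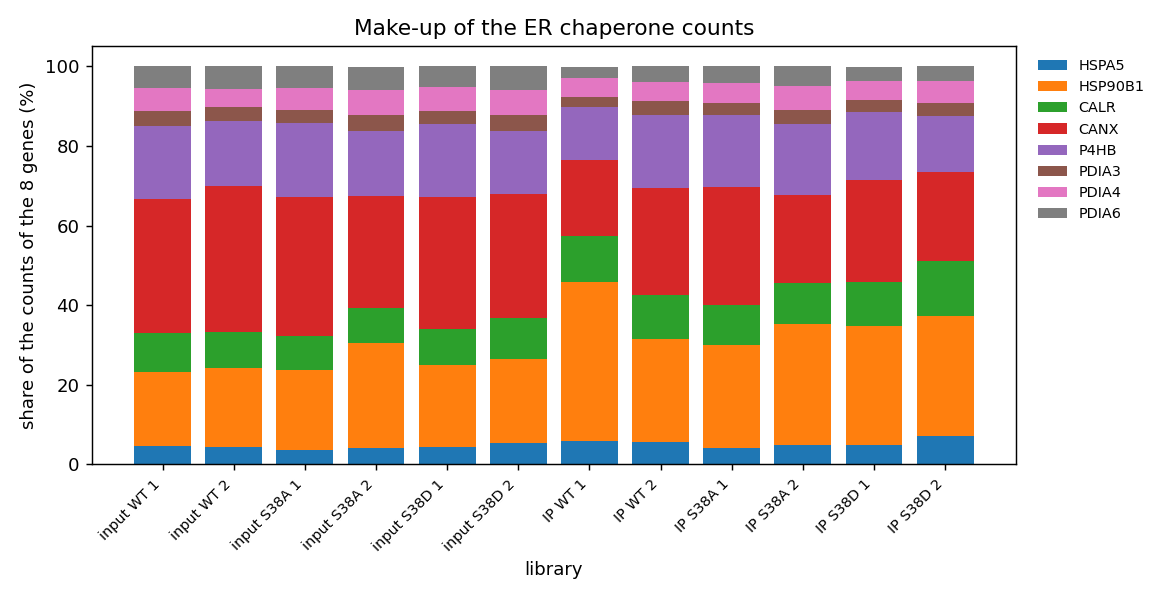
Share of the summed counts of the 8 genes held by each (vertical axis, percent) in the 12 libraries. The HSP90B1 band is wider and the CANX band narrower in each IP library than in the input of its fraction, and HSP90B1 is widest in the first WT IP, at 40.0%.

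Ratios of counts to CANX within a library also need no scaling. They restate the changes above in another form and are given with no test of their own. There were 0.542 to 0.935 HSP90B1 counts for each CANX count in input libraries and 0.875 to 2.10 in IP libraries. The ratio was higher in IP in 6 of 6 fractions for HSP90B1, HSPA5, CALR, P4HB and PDIA4. It was higher in 5 of 6 for PDIA3. For PDIA6 it was higher in 1 of 6, with ranges of 0.152 to 0.209 in input and 0.139 to 0.222 in IP, which overlap almost wholly.

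The lines were next taken separately. In WT, 6 of the 8 mRNAs rose in IP, against 5.77% of all genes and 15.5% of the highest abundance quartile called higher, and the median of the 8 was 0.86 (all genes -0.04). HSP90B1 was 3.61-fold higher in WT IP (log2 1.85, SE 0.33, edgeR adjusted p = 0.0083). HSPA5 was 2.61-fold higher (edgeR adjusted p = 0.013) and CALR 2.46-fold (edgeR adjusted p = 0.010). P4HB, PDIA4 and PDIA3 also passed, at 1.78-fold, 1.83-fold and 1.64-fold, while CANX (1.27-fold) and PDIA6 (1.19-fold) did not. The WT values leaned on the first fraction, where all 8 genes had their highest change of any fraction, as 27% of all genes did. With total counts that held for 5 of the 8, and the share of all genes was not taken. In that fraction HSP90B1 stood at a log2 change of 2.49, against 0.94 in the second WT fraction. Without the first WT IP library the median of the 8 in WT fell to 0.71. With only the 4 WT libraries fitted, 0 of the 8 were called, and so were 0 of all 15509 genes tested. The number of the 8 called was 4 with total counts or in voom, where PDIA3 and PDIA4 did not pass. Genes called in either direction were 17.3% of all with total counts and 3.53% in voom, against 11.2% in the main fit. With 1 of the 12 libraries left out, the log2 change in WT ran from 1.09 to 2.36 for HSP90B1, 0.92 to 1.61 for CALR and 0.75 to 0.93 for P4HB.

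In S38D, 4 of the 8 rose: HSP90B1 (2.73-fold, edgeR adjusted p = 0.031), CALR (2.45-fold, adjusted p = 0.023), HSPA5 (2.35-fold, adjusted p = 0.031) and P4HB (1.73-fold, adjusted p = 0.024). Of all genes 3.13% were called higher, and of the highest abundance quartile 9.34%. The median of the 8 was 0.74 (all genes -0.05). PDIA4 and PDIA3 gave 1.61-fold and 1.56-fold and did not pass (edgeR adjusted p = 0.10 and 0.068), nor did CANX at 1.41-fold and PDIA6 at 1.25-fold. With the fraction as a block 7 of the 8 passed, all but PDIA6, while the genes called in either direction rose from 824 to 3379 of 16920. Leaving out any of the 4 S38D libraries ended the calls among the 8 in this line, in fits where few or none of all genes were called. The log2 changes then ran from 1.30 to 1.58 for HSP90B1, 0.75 to 0.82 for P4HB, 0.97 to 1.56 for CALR and 0.77 to 1.59 for HSPA5, against 1.45, 0.79, 1.29 and 1.23 with all libraries.

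In S38A the same 8 mRNAs gave smaller values, and none passed (edgeR), with 4 of 8 at unadjusted p under 0.05. Of all 16920 genes 2575 were at unadjusted p under 0.05, and 0% were called. HSP90B1 stood at 1.70-fold (edgeR adjusted p = 0.28), HSPA5 at 1.69-fold (adjusted p = 0.23), CALR at 1.62-fold (adjusted p = 0.22) and P4HB at 1.45-fold (adjusted p = 0.16). PDIA4, PDIA3, CANX and PDIA6 lay between 1.14-fold and 1.32-fold. The median of the 8 was 0.47, against 0.00 for all genes. With the fraction as a block HSPA5, CALR and P4HB passed (edgeR adjusted p = 0.023, 0.023 and 0.013), where 12.3% of all genes were called in either direction. P4HB passed in DESeq2 as well (adjusted p = 0.011), where 465 of 16920 genes were called in either direction. In voom 0 of the 8 and 0 of all genes were called.

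For 6 of the 8 genes both S38A fractions had a lower IP over input than all 4 fractions of the other lines, which held for 7.72% of all genes. That share was not taken for the highest abundance quartile, to which all of the 8 but PDIA3 belong. The 6 were HSPA5, HSP90B1, CALR, P4HB, PDIA3 and PDIA4. The count was 6 with total counts too, where the share of all genes was not taken. For CALR the S38A fractions stood at 0.73 and 0.67 on the log2 scale, against 0.87 to 1.64 in WT and S38D. For P4HB they stood at 0.50 and 0.58, against 0.74 to 0.92. CANX and PDIA6 overlapped between the lines.

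The test of the difference between lines in IP over input found 0 of the 8 in any pair of lines (edgeR with or without the fraction as a block, DESeq2 and voom), with 0% of all genes called. For S38A against WT all 8 differences were below 0, with a median of -0.44 (all genes 0.05). The difference was -1.09 for HSP90B1 (95% interval -2.06 to -0.11, edgeR adjusted p = 1), the 1 gene of the 8 at unadjusted p under 0.05. It ranged from -1.59 to -0.35 with 1 library left out, and passed without the second WT IP library (edgeR adjusted p = 0.015), where 293 of all genes were called. HSPA5 gave -0.63 (95% interval -1.47 to 0.21) and CALR -0.60 (-1.33 to 0.13). With total counts the median was -0.28, against 0.19 for all genes, and 2 of the 8 differences were above 0.

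For S38D against S38A all 8 differences were above 0, with a median of 0.31 (all genes -0.02) and values from 0.14 for PDIA6 to 0.68 for HSP90B1 (95% interval -0.29 to 1.65). Both of these comparisons use the S38A libraries and are not independent of each other. With total counts the median was 0.17, and 7 of the 8 were above 0. For S38D against WT the values lay from -0.41 for HSP90B1 to 0.15 for CANX, with a median of -0.06. Their intervals were wide. For CALR the estimate was -0.01 with an interval of -0.73 to 0.72, so the libraries do not show that S38D and WT were alike for that gene. In the comparisons of S38D with S38A and with WT, 0 of the 8 were at unadjusted p under 0.05.

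**Figure D4:**
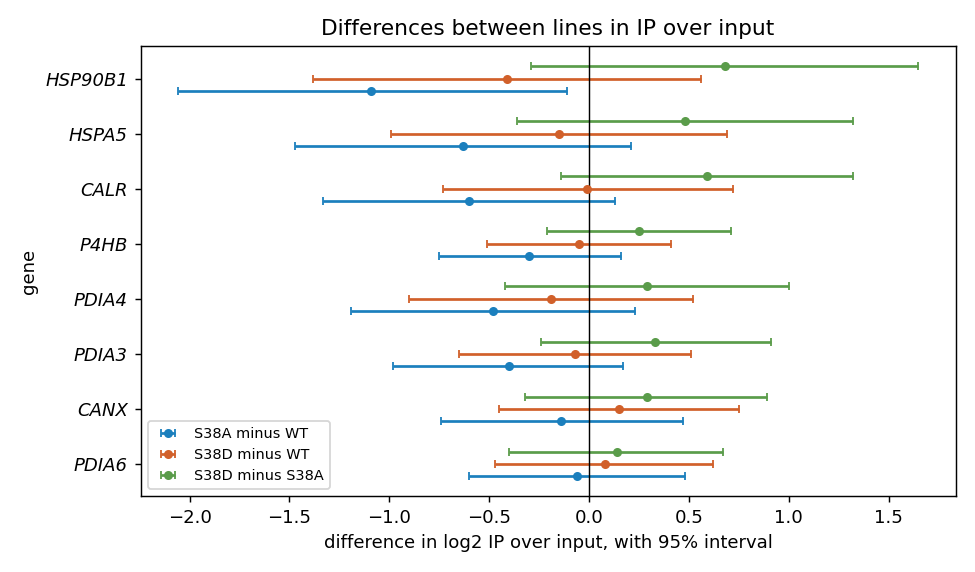
Differences between lines in log2 IP over input (horizontal axis) with 95% intervals, by gene. All S38A minus WT points (blue) lie left of 0 and all S38D minus S38A points (green) right of 0, but the intervals are wide, and only that of HSP90B1 in S38A minus WT leaves out 0.

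The level of these mRNAs in IP moved with the spike-in share and the depth of the IP libraries. Summed over the 8 genes, the level was 3463 CPM in the first WT IP library, 2756 and 2282 in the second and first S38D, 2187 in the second WT, and 1839 and 1766 in the first and second S38A. ERCC spike-in RNA is a synthetic standard, put into all inputs alike by the labels, which do not state the amount put into IP RNA. In the same order, it took 5.43%, 5.18%, 3.79%, 2.57%, 2.15% and 1.44% of all counts. The gene counts in that order were 3186164, 3695441, 4390785, 5048911, 6150315 and 7430881. Thus the IP libraries with the higher spike-in share and the fewer gene counts were those with the higher chaperone level in TMM-scaled CPM. With total counts the level was 2860, 2440, 2095, 1999, 1811 and 1840 CPM in that order, so the S38A libraries changed places. The part of spike-in share or depth in the differences between lines was not tested, and neither can be told apart from line for S38A, whose IP libraries were the 2 deepest. Among the inputs the summed level ran from 1260 to 1474 CPM and the spike-in share from 0.116% to 0.484%.

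**Figure D5:**
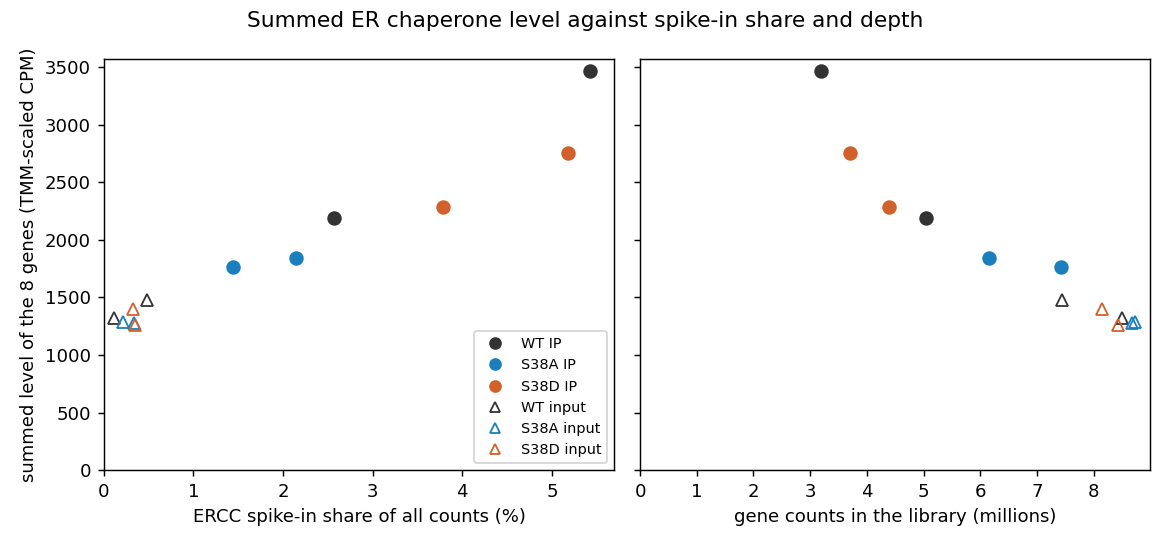
Summed TMM-scaled CPM of the 8 genes (vertical axes, starting at 0) against the ERCC share of all counts (left, percent) and the gene counts of a library (right), with filled circles for IP and open triangles for input libraries. The 6 IP libraries form a rising series on the left and a falling one on the right, from 1766 CPM at a share of 1.44% to 3463 CPM at 5.43%.

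The 80S inputs were compared to see whether chaperone mRNA on 80S ribosomes itself differed between lines. None of the 8 genes passed in any pair of lines in edgeR, DESeq2 or voom, where edgeR called 0% of all genes for S38A against WT and 0.00598% in each of the other comparisons. Against WT the changes in S38A input ran from -0.32 for HSPA5 to 0.17 for HSP90B1, with a median of -0.07. In S38D input they ran from -0.18 for CANX to 0.15 for PDIA4, with a median of 0.01. With spike-in scaling these medians were -0.49 and -0.78, beside -0.44 and -0.83 for all genes, and 0 of the 8 passed there either. Of the 24 differences, 1 was at unadjusted p under 0.05. It was HSPA5 in S38D against S38A, at 0.41 (SE 0.18, edgeR adjusted p = 0.96), and with spike-in scaling it was -0.02. For P4HB, with the narrowest intervals, that of S38D against S38A was -0.27 to 0.30. The summed level was 1397 ± 109 CPM in WT input, 1282 ± 1 in S38A and 1331 ± 100 in S38D, each with its SD over 2 libraries.

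The chaperone mRNAs varied together over the 12 libraries after IP and input levels were each centred. Each gene's profile correlated with the mean of the other 7 at 0.98 for CALR, 0.96 for HSPA5, 0.87 for PDIA4, 0.86 for PDIA3, 0.83 for HSP90B1, 0.73 for P4HB, 0.71 for PDIA6 and 0.57 for CANX. Between pairs of the 8 genes the correlation ran from 0.26, for P4HB with PDIA6, to 0.98, for HSPA5 with CALR. These are descriptions over libraries that share depth and scaling, and the share of all genes with a correlation as high was not taken. Among 11693 genes with a mean of at least 10 CPM, the other genes with the profile most like the mean of the 8 were ENSG00000134057.10 and ENSG00000164902.9, both at 0.98. ENSG00000134057.10 stood at 190.04 and 123 CPM in WT IP, 104 and 105 in S38A IP, and 124 and 183 in S38D IP, and at 86.9 to 103 in the inputs.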

How the data were processed

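Polyadenylated RNA was measured in 6 input and 6 IP libraries. For each library the authors deposited a table of raw counts for 57820 Ensembl gene identifiers and 92 ERCC spike-in sequences. The tools named by the submitters' processing notes are STAR 2.4.2a, bcl2fastq 2.16.0.10 and DESeq2, and the build is hg19. What counted the reads, with which strand setting, annotation and treatment of multiply mapped reads, is not stated in those sources, so genes that overlap are uncertain. Library sizes and gene tests left out ERCC counts, except where an alternative says so.

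The test was edgeR 4.0.16 in R 4.3.3 (filterByExpr with a minimum count of 10, TMM, glmQLFit and glmQLFTest). P-values were adjusted by Benjamini-Hochberg over all genes tested, in a fit of all 12 libraries (16920 genes) and a fit of the 6 inputs (16728 genes). The SE is the log2 change over the root of F, and intervals are 95% t intervals. Log2 CPM used a prior count of 2. Alternatives were DESeq2 1.42.0, voom in limma 3.58.1 with sample weights, RLE and total-count scaling, spike-in scaling of the inputs, no filter, a mean of at least 10 CPM, other sets of libraries and omission of each library in turn. The fits were tried on simulated counts with known changes, drawn as independent libraries of equal spread. The real libraries were paired and unequal in spread, so the simulation does not show how the fits handle that.

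By the labels, an input and an IP library of a line with the same number share a fraction. Their deviations from group means correlated at 0.28 to 0.64, so the libraries are paired, and a block for the fraction was an alternative. Replicates differed beyond sampling noise in every group, with chi-square per degree of freedom of 5.74 to 17.4. All 8 genes are named, and the likeness rule took the 2 other genes of highest correlation. The genes and lists were chosen with earlier results of these data known. Further ER gene lists and cell markers fixed by symbol could not be matched, since 0 of 59792 genes in the reference table carried an Ensembl identifier. They are not analysed here.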

Additional observations from a re-analysis of the deposited data

How the results depend on the processing

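With 1 library left out, the median log2 IP over input of the 8 genes ran from 0.60 to 0.76 over the 3 lines. It ran from 0.71 to 1.07 in WT and from 0.62 to 0.84 in S38D. HSP90B1 in S38A against WT ran from -1.59 to -0.35. The calls in WT and in S38D did not hold through all of these fits. In WT the 6 called genes became 0 with only the 4 WT libraries, where 0 of all 15509 genes were called. With the replicate block the number of the 8 genes called was 8 over the 3 lines, 6 in WT, 3 in S38A in place of 0, and 7 in S38D in place of 4. In S38A it was 3 with no filter and 1 with DESeq2, where 399 of 33516 and 465 of 16920 genes were called in either direction. PDIA6 in WT turned to -0.02 with total counts, CANX in S38A ran from -0.09 to 0.43 with 1 library left out, and HSPA5 in input S38D against S38A turned to -0.02 with ERCC spike-in scaling. None of the 3 was called. The summed level moved to 1412 CPM in S38A input and 1438 in S38D input with total counts. With ERCC counts in the library total it moved to 1408 and 1432, and to 2165 in S38D IP. These shifts exceeded the SD of the group's 2 libraries. In WT IP the level of 2825 CPM, with an SD of 902, became 2430 with total counts and 2326 with ERCC counts added. Over all genes, 5378 calls over the 3 lines became 7860 with the replicate block, and 1903, 0 and 824 in WT, S38A and S38D became 4818, 2079 and 3379. The cause was not tested. Leaving out a library leaves 1 in its group, which is then assumed to vary like the others.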
